A study of Mus musculus with 8 samples.

Results

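The cell cycle and DNA replication genes were 54 genes chosen by name, and all 54 were found among the 53819 genes of the count table. They comprised 11 G1 cyclins, kinases and inhibitors, 18 S phase genes and 25 mitosis genes. RNA sequencing had been performed on bone marrow-derived macrophages (BMDM) from 4 female Balb/cJ mice aged 8 weeks, each mouse giving a vehicle (DMSO) and a bilirubin culture, so that 8 libraries were compared. Marrow cells of all cultures were grown for 5 days in medium with M-CSF (macrophage colony-stimulating factor, 25 ng/mL), the growth factor that drives marrow progenitors to divide and become macrophages, and were then exposed for 48 h to 2.5 µM bilirubin, the end product of heme breakdown, or to its solvent. The mice were of a single strain and sex, and 1 dose and 1 time point were sequenced. Vehicle libraries held 37747315 to 47071714 counts on genes and bilirubin libraries 34142781 to 41054034, and all 54 genes had enough counts to be tested.

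A cell enters division when growth factor signals raise the D-type cyclins, which activate the kinases CDK4 and CDK6, and cyclin E with CDK2 then carries the cell into S phase. Inhibitor proteins such as p21 and p27 hold these kinases back. The E2F factors switch on the genes that copy DNA, and later the factors B-Myb and FoxM1 switch on the genes of mitosis. In macrophages the cyclin D1 gene is a classic response gene of the M-CSF receptor, and this factor keeps macrophages of marrow cultures dividing. Whether M-CSF was still supplied during the exposure to bilirubin is not given in the sources used here. The comparison therefore asked how bilirubin left each of these layers after 48 h.

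With bilirubin, 3 of the 11 G1 genes fell, and these were *Ccnd1* and *Ccnd2*, which encode cyclins D1 and D2, and *Cdkn1a*, which encodes the CDK inhibitor p21. None of the 18 S phase genes and only 1 of the 25 mitosis genes, the spindle checkpoint kinase gene *Bub1*, changed by the same test. The test was edgeR's quasi-likelihood test with the mouse in the model, on counts scaled by TMM (a correction for library composition), with p-values adjusted over all 13722 tested genes by the Benjamini-Hochberg method and a threshold of 0.05. In all, 4 of the 54 genes passed, beside 7.53% of all tested genes, so that the share of the whole group was close to the background. One gene of the 54 rose, beside 4.49% of all tested genes, and 3 fell, beside 3.04%. The 3 falls were all among the 11 G1 genes. Levels of the vehicle and bilirubin groups did not overlap for 4 of the 54 genes, beside 10.6% of all tested genes, and these were the genes that passed. Among the 18 S phase genes 3 had an unadjusted p under 0.05 in edgeR, beside 2851 of the 13722 tested genes. For the S phase genes DESeq2 and limma-voom also called 0. In bulk RNA, fewer cells expressing a gene and less RNA of that gene per cell cannot be told apart.

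**Figure D1:**
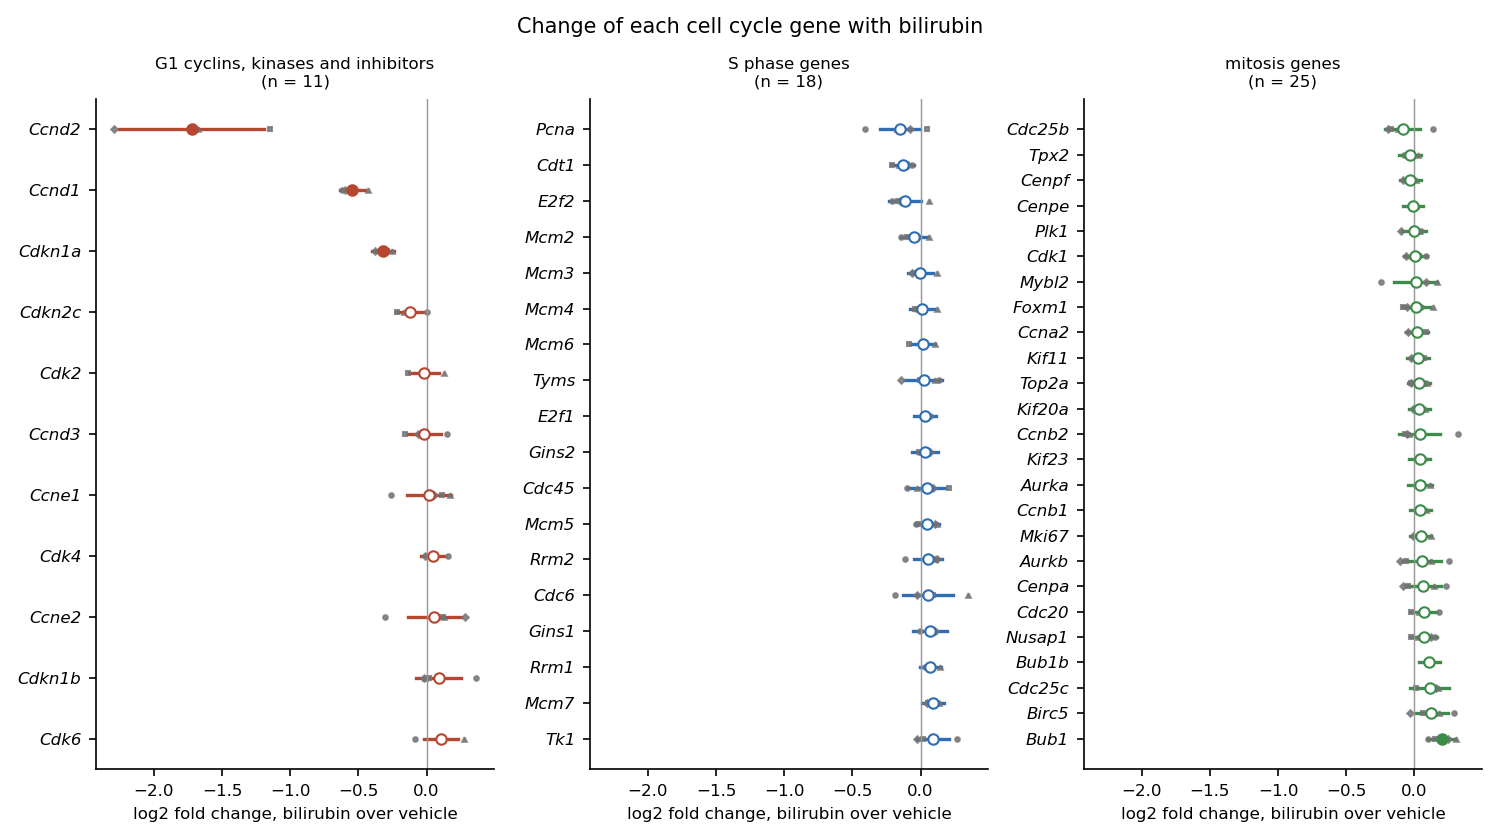
Log2 fold change (bilirubin over vehicle) of the 54 genes in 3 classes. Large points show the fitted change, filled where the adjusted p was under 0.05, lines the 95% interval, and small grey symbols the change within each of the 4 mice (circle, square, triangle and diamond for mouse 1 to mouse 4). *Ccnd2* (-1.72), *Ccnd1* (-0.54) and *Cdkn1a* (-0.32) lie to the left of 0, and *Bub1* (0.20) is the only filled point to the right.

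The cultures carried the marks of macrophages. All 10 macrophage marker genes were tested, with a summed level of 30692 to 30888 TPM (a level scaled for transcript length and library size) in vehicle and 34473 to 38400 TPM in bilirubin cultures, and 4 of them rose (*Adgre1*, *Itgam*, *Lyz2* and *Cd14*), beside 4.49% of all tested genes. The other 6 had negative changes that did not pass, and the median log2 fold change of the 10 was -0.08. Of 15 progenitor and granulocyte markers only 4 could be tested, and the summed level of all 15 was 66.7 to 73.8 TPM in vehicle and 101 to 158 TPM in bilirubin cultures, most of it *S100a8*, which rose by 1.07 on the log2 scale, while the stem and progenitor marker *Cd34* fell by 0.70. Of the 4 tested progenitor and granulocyte markers, 3 had positive changes and 1 a negative change, with a median log2 fold change of 0.40. Among the 15, *Kit*, *Flt3*, *Mpo*, *Elane*, *Ly6g* and *Camp* had group means of at most 0.206 TPM, and the levels of the rest are not given singly. Erythroid, lymphoid, and dendritic and mast cell markers summed to at most 0.691, 0.850 and 0.372 TPM in any library, and stromal markers to 1.32 to 4.43 TPM. Of the 9 stromal markers 5 were tested and 0 called by edgeR. Of these 5, 1 had an unadjusted p under 0.05, beside 2851 of all 13722 tested genes. The part of these markers in the results for the cell cycle genes was not tested. The bilirubin culture of mouse 1 was the shallowest library and stood apart for several of the genes (*Pcna*, *Cdkn1b*, *Ccne2* and *Ccnb2*), and results with and without this mouse are given beside them.

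*Ccnd1* was the most expressed of the D-type cyclins and fell in all 4 mice. The gene (ENSMUSG00000070348) lies on chromosome 7, 144483668 to 144493662, on the minus strand of GRCm39. Its level in CPM (counts scaled to library size, here with TMM) was 631, 573, 599 and 669.5 with vehicle in mice 1 to 4, and 409, 398, 444 and 443 with bilirubin. Every bilirubin culture was below every vehicle culture. The mean went from 618 ± 41.7 CPM (SD, n = 4) with vehicle to 424 ± 23.2 CPM (SD, n = 4), a log2 fold change of -0.54 (95% interval -0.63 to -0.45, edgeR quasi-likelihood test, adjusted p = 0.000165). Within mice 1 to 4 the log2 change was -0.62, -0.52, -0.43 and -0.60. *Ccnd1* passed under all 12 alternative settings, with adjusted p-values of 1.54e-28 to 0.00312. By size of change it was number 93 of the 417 genes that fell. The transcript ENSMUST00000093962, of 3740 bases, held 99.2% to 99.8% of the counts of the gene in each library, so that nearly the whole signal came from a single annotated form. The gene LTO1 overlaps it on the other strand, and whether counting used strand is not given in the sources used here.

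*Ccnd2* was the least expressed of the 54 genes and had the largest fall among them. It lies on chromosome 6, 127102125 to 127129156, on the minus strand (ENSMUSG00000000184). With vehicle, mice 1 to 4 held 151, 102, 140 and 86 counts, which were 3.18, 2.7, 3.21 and 2.02 CPM. With bilirubin they held 33, 43, 39 and 15 counts, which were 0.950, 1.19, 0.972 and 0.373 CPM. The groups did not overlap, and the culture of mouse 4 was the lowest of its group in both. The log2 fold change was -1.72 (95% interval -2.26 to -1.19, edgeR quasi-likelihood test, adjusted p = 0.00299), and 6 of the 417 genes that fell had a larger change. *Ccnd2* passed in 11 of 12 alternatives and had an adjusted p of 0.0563 when transcript length was added as an offset, within a range from 4.28e-10. Annotated genes on the other strand also overlap *Ccnd2* (Gm68045, Gm43126 and 9330179D12Rik), and without strand their reads cannot be told apart.

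**Figure D2:**
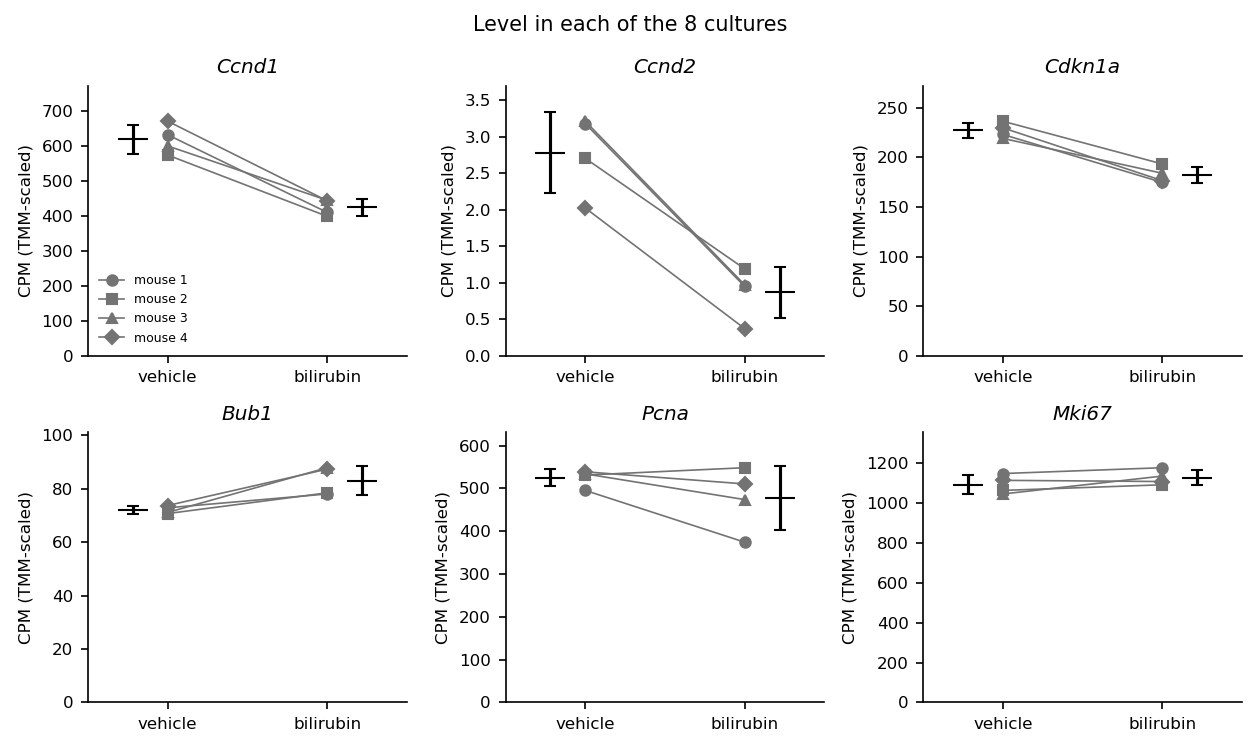
Level (CPM scaled by TMM, linear axis from 0) of 6 genes in the 8 cultures. Each line joins the vehicle and bilirubin cultures of a mouse, and the bars beside them give the mean and SD of 4 cultures. All 4 lines fall for *Ccnd1*, *Ccnd2* and *Cdkn1a* and rise for *Bub1*, those of *Mki67* stay between 1046 and 1177 CPM, and mouse 1 has the lowest *Pcna* value, 374 CPM.

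The third D-type cyclin gene, *Ccnd3*, was at 61.7, 63.0, 64.1 and 63.9 CPM in vehicle and 68.6, 56.6, 63.9 and 61.1 CPM in bilirubin cultures. The groups overlapped, and the log2 fold change of -0.02 had a 95% interval from -0.14 to 0.10. Per transcript length, the D-type cyclins together went from 331 ± 21.7 TPM (SD, n = 4) with vehicle to 237 ± 14.6 TPM (SD, n = 4), and their sum was lower in each bilirubin culture (218 to 249.6 TPM) than in any vehicle culture (307 to 354 TPM). *Ccnd1* supplied 82.2% ± 0.854 (SD, n = 4) of that sum in vehicle and 76.7% ± 2.00 (SD, n = 4) in bilirubin cultures, and the share of *Ccnd3* went from 17.5% to 23.2%. *Ccnd1* thus remained the main D-type cyclin transcript in every culture, at 168 to 193 TPM after bilirubin beside 49.2 to 65.4 TPM of *Ccnd3*.

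**Figure D3:**
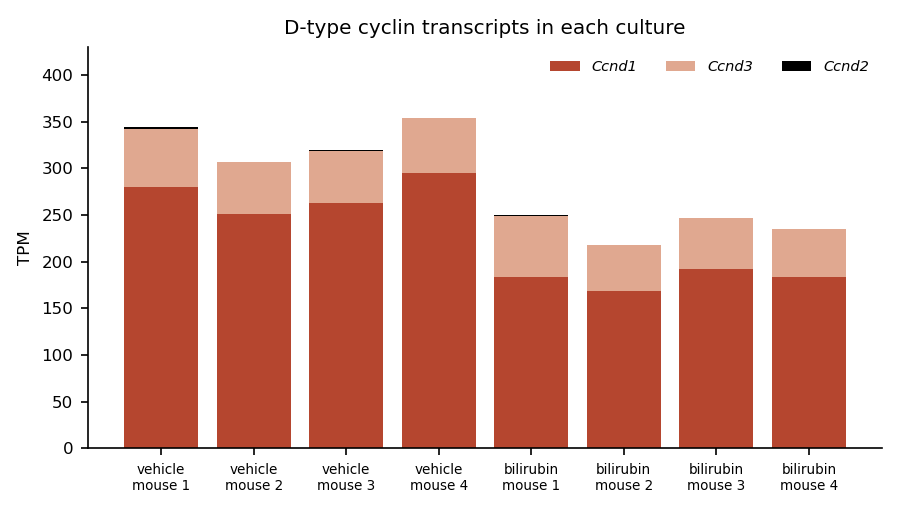
Stacked level (TPM) of the 3 D-type cyclin genes in each of the 8 cultures. The bilirubin bars reach 218 to 249.6 TPM and the vehicle bars 307 to 354 TPM, the *Ccnd1* segment has the largest difference between the groups while that of *Ccnd3* is shorter with bilirubin in mice 2, 3 and 4, and *Ccnd2* (at most 1.58 TPM) is too thin to read.

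*Cdkn1a*, the p21 gene and a well-known target of p53, moved in the same direction as the cyclins it opposes. It lies on chromosome 17, 29309936 to 29319701, on the plus strand (ENSMUSG00000023067). Its vehicle levels were 223, 236, 219 and 229.7 CPM, and its bilirubin levels 175, 193, 184 and 177 CPM. The lowest vehicle culture was above the highest bilirubin culture. The mean went from 227 ± 7.61 CPM (SD, n = 4) with vehicle to 182 ± 8.47 CPM (SD, n = 4), a log2 fold change of -0.32 (95% interval -0.40 to -0.24, edgeR quasi-likelihood test, adjusted p = 0.00126). It passed under all 12 alternatives, with a highest adjusted p of 0.0169. The transcript ENSMUST00000023829 held 93.0% to 96.2% of its counts, and the genes Gm64878 and Dino overlap it on the other strand. The ratio of *Ccnd1* to *Cdkn1a* in TPM was 1.32 ± 0.0998 (SD, n = 4) in vehicle and 1.13 ± 0.0915 (SD, n = 4) in bilirubin cultures. Within each of the 4 mice it was lower with bilirubin. The groups overlapped, since the bilirubin cultures of mouse 3 (1.19) and mouse 4 (1.21) were above the lowest vehicle culture, that of mouse 2 (1.18). The ratio was not tested.

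The other inhibitor genes did not pass. *Cdkn1b*, which encodes p27, a protein that accumulates in resting cells, was at 26.4, 26.9, 27.5 and 26.7 CPM in vehicle and 34.0, 27.3, 27.2 and 26.4 CPM in bilirubin cultures. Only the bilirubin culture of mouse 1 stood above the rest, and the log2 fold change was 0.09 with all mice and -0.01 without mouse 1. *Cdkn2c*, which encodes p18, an inhibitor of CDK4 and CDK6, had a log2 fold change of -0.12 (edgeR quasi-likelihood test, adjusted p = 0.143), and of -0.17 with an adjusted p of 0.0111 without mouse 1. The kinase gene *Cdk4* was the second most expressed of the 54 genes per transcript length, at 269.9 TPM over the 8 cultures. Its levels were 121, 122, 127 and 132 CPM in vehicle and 135, 123, 129 and 131 CPM in bilirubin cultures, which overlapped. *Cdk6*, *Cdk2* and the cyclin E genes *Ccne1* and *Ccne2* had log2 fold changes of 0.11, -0.02, 0.02 and 0.06, and none passed. Without mouse 1, in which *Ccne2* and *Cdk6* had changes of -0.31 and -0.09, *Ccne2* (0.17) and *Cdk6* (0.17) passed, with edgeR adjusted p-values of 0.0354 and 0.0161.

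Promoter sequence is shown for *Ccnd2*, the cyclin gene with the largest fall, in order to show whether the letters of known cell cycle elements stand before it. In the 300 bases from 250 before to 50 after the start of the main annotated transcript (GRCm39, GENCODE), both strands were searched for the E2F element (TTGGCGC or TTCGCGC, whose matches can overlap), the CCAAT box (CCAAT) and the CHR element of mitosis genes (TTTGAA or TTCGAA, of which the second is its own reverse complement). The stretch of 180 bases before the start of *Ccnd2* (chr6:127128024-127128203, minus strand) is shown from 5′ to 3′, with matches in capitals.
Ccnd2: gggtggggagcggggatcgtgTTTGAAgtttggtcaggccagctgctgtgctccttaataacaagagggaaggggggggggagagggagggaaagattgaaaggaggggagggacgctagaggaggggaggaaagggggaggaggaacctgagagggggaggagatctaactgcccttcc
The window of *Ccnd2* held 1 match to the CHR element, and those of *Ccnd1* and *Cdkn1a* held none of the motifs. The stretch of *Ccnd2* lies inside the annotated span of the gene, of which another form starts further upstream, and overlaps no annotated exon. Of the 11 G1 genes, 27.3% had an E2F match and 9.09% a CHR match, beside 6.5% and 15.5% of the 11545 promoters of tested protein-coding genes. A match is a description of the letters only.

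Genes of S phase stayed near their vehicle levels. Of these 18 genes, 0 passed, the median log2 fold change was 0.03, beside -0.002 over all tested genes, and the changes ran from -0.15 to 0.09. The 95% interval of each of the 18 lay within 1.3-fold of no change, a bound chosen after the values were seen, as did those of 8636 of the 13722 tested genes. The class median within mice 1 to 4 was -0.02, 0.01, 0.10 and 0.001. The summed level of the class was 1865 to 2045 TPM in vehicle and 1774 to 1896 TPM in bilirubin cultures, and the groups overlapped. Within each of the 4 mice the sum in TPM was lower with bilirubin. The sum in CPM was lower with bilirubin in mouse 1 and higher in mice 2, 3 and 4. These sums were not tested.

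*Pcna*, the sliding clamp of the replication fork, was the most expressed of all 54 genes per transcript length, at 574 TPM. Its levels were 495, 531, 534 and 539 CPM in vehicle and 374, 548, 474 and 510.4 CPM in bilirubin cultures. The groups overlapped, since mouse 2 had its highest value with bilirubin, and the low value belonged to mouse 1. The log2 fold change of -0.15 (95% interval -0.30 to -0.003) did not pass (edgeR quasi-likelihood test, adjusted p = 0.230), passed when no filter on low counts was applied (0.00560), and was -0.07 without mouse 1 (0.316). *Rrm2*, the regulated subunit of ribonucleotide reductase, was at 233, 216, 234 and 243 CPM in vehicle and 215, 231, 251 and 264 CPM in bilirubin cultures. Its groups overlapped with a log2 fold change of 0.05, and without mouse 1 it was 0.11 (edgeR quasi-likelihood test, adjusted p = 0.0455).

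The MCM proteins form the helicase that opens DNA at origins. *Mcm6* was the most expressed of them, at 224, 223, 224 and 242 CPM in vehicle and 229, 211, 241 and 246 CPM in bilirubin cultures, with overlapping groups and a log2 fold change of 0.02. *Mcm2*, *Mcm3*, *Mcm4*, *Mcm5* and *Mcm7* had changes of -0.05, -0.003, 0.01, 0.05 and 0.09, and none passed. *Gins1*, *Gins2* and *Cdc45*, the partners of the helicase in its active form, had changes of 0.07, 0.03 and 0.04. The loading factors differed in sign: *Cdc6* had a change of 0.06, while *Cdt1*, which brings the helicase to origins before S phase, had a change of -0.13 (edgeR quasi-likelihood test, adjusted p = 0.0801). *Cdt1* had a negative change in 4 of 4 mice, although the groups overlapped, and it passed in 2 of 12 alternatives (adjusted p of 0.0471 without a filter and 0.0145 without mouse 1).

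The nucleotide supply genes *Rrm1*, *Tyms* and *Tk1*, which make deoxynucleotides and thymidylate, had changes of 0.07, 0.02 and 0.09. *E2f1*, the activator of this program, was at 69.6, 71.0, 74.8 and 74.3 CPM in vehicle and 73.2, 72.1, 75.8 and 74.9 CPM in bilirubin cultures. Its groups overlapped, and the log2 fold change of 0.03 had a 95% interval from -0.05 to 0.11. The second activator gene, *E2f2*, had a change of -0.11 (edgeR quasi-likelihood test, adjusted p = 0.243). An E2F match was found in 44.4% of the 18 windows, beside 6.5% of the windows of tested genes, and the window of *Mcm5* is shown as an example (chr8:75835960-75836139, plus strand), with E2F and CCAAT matches in capitals.
Mcm5: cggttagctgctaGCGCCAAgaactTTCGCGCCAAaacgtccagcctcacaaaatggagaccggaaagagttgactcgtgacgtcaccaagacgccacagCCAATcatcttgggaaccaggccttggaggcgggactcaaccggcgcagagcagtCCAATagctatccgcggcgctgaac
*Mcm5*, whose window held 3 E2F matches, was at 189 ± 8.83 CPM (SD, n = 4) in vehicle and 195 ± 15.1 CPM (SD, n = 4) in bilirubin cultures.

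The mitosis genes also stayed near their vehicle levels, with *Bub1* as the exception. The median log2 fold change of the 25 genes was 0.04, with class medians of 0.07, 0.01, 0.07 and -0.03 within mice 1 to 4, and changes ran from -0.09 to 0.20. All 25 intervals lay within 1.3-fold of no change, that of *Bub1* included, beside those of 8636 of the 13722 tested genes. The summed level was 1863 to 2115 TPM in vehicle and 1796 to 2149 TPM in bilirubin cultures, and the groups overlapped.

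*Mki67*, the gene of the proliferation marker Ki67, was at 1148, 1063, 1046 and 1114 CPM in vehicle and 1177, 1092, 1135 and 1108 CPM in bilirubin cultures. The groups overlapped, and the log2 fold change of 0.05 had a 95% interval from -0.03 to 0.12. *Top2a*, which untangles DNA before chromosomes separate, was at 432, 414, 430.5 and 452 CPM in vehicle and 456, 407, 459 and 445 CPM in bilirubin cultures, and *Cdk1*, the kinase of mitotic entry, at 93.2, 99.7, 103 and 111 CPM and at 98.8, 102, 102 and 106 CPM. Neither gene separated the groups, with log2 fold changes of 0.03 and 0.01. Per transcript length *Cdk1*, *Top2a* and *Mki67* were at 234, 176 and 174 TPM over the 8 cultures, among the 8 most expressed of the 54 genes.

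The cyclin genes *Ccna2*, *Ccnb1* and *Ccnb2*, partners of CDK1, had changes of 0.02, 0.04 and 0.04. In *Ccnb2* only the bilirubin culture of mouse 1 moved up, by 0.32, while the other mice had changes of -0.07, -0.04 and -0.06, so that the fitted change was -0.06 without mouse 1. The phosphatase genes *Cdc25b* and *Cdc25c*, which activate CDK1, had changes of -0.09 and 0.11, and *Cdc25b* passed without mouse 1 (-0.17, edgeR adjusted p = 0.00942). The mitotic kinase genes *Plk1*, *Aurka* and *Aurkb* had changes of -0.005, 0.04 and 0.05, and the transcription factor genes *Foxm1* and *Mybl2*, which drive this program, of 0.01 and 0.01. The centromere and kinetochore genes *Cenpa*, *Cenpe* and *Cenpf* had changes of 0.06, -0.01 and -0.03, the spindle motors *Kif11*, *Kif20a* and *Kif23* of 0.03, 0.04 and 0.04, and the spindle proteins *Tpx2* and *Nusap1* of -0.03 and 0.07. None of these genes passed with all mice.

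*Bub1*, a kinase of the checkpoint that delays chromosome separation until all kinetochores are attached, lies on chromosome 2, 127643036 to 127673806, on the minus strand (ENSMUSG00000027379). It was at 72.9, 70.8, 71.2 and 73.8 CPM in vehicle and 78.1, 78.5, 87.9 and 87.4 CPM in bilirubin cultures. Every bilirubin culture was above every vehicle culture, with mouse 3 and mouse 4 the highest. The log2 fold change was 0.20 (95% interval 0.10 to 0.30, edgeR quasi-likelihood test, adjusted p = 0.0290), and *Bub1* was number 524 of 616 genes that rose, by size. It passed in 8 of 12 alternatives, with a range of adjusted p-values from 0.00248 to 0.531. It did not pass without mouse 2 (0.0841), mouse 3 (0.194) or mouse 4 (0.173), nor with an offset for transcript length (0.531, with a change of 0.11). Its checkpoint partner *Bub1b*, which encodes BubR1, had a positive change in 4 of 4 mice, with overlapping groups and a log2 fold change of 0.11 (edgeR quasi-likelihood test, adjusted p = 0.0983). *Cdc20*, the target of that checkpoint, and *Birc5*, which encodes survivin, had changes of 0.07 and 0.12, with adjusted p-values of 0.437 and 0.237.

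The promoters of the mitosis genes shared letters that the choice of genes had not used. A CHR match was found in 52.0% of the 25 windows, beside 15.5% of the windows of tested genes, and a CHR match together with a CCAAT box in 48.0%, beside 6.61%. The stretches before *Ccnb2* (chr9:70328875-70329054, minus strand), which has both elements, and before *Bub1* (chr2:127673807-127673986, minus strand), the mitosis gene that rose, are shown with matches in capitals.
Ccnb2: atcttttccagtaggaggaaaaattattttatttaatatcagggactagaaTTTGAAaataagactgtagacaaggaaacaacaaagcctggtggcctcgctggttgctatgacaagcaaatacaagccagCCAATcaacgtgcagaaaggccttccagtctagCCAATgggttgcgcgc
Bub1: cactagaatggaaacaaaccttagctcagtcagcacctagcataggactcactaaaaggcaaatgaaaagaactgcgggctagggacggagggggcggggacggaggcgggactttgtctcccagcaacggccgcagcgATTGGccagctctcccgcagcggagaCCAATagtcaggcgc
*Bub1* has 2 CCAAT boxes in this stretch, and its single CHR match lies behind the start, at base 42.

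**Figure D4:**
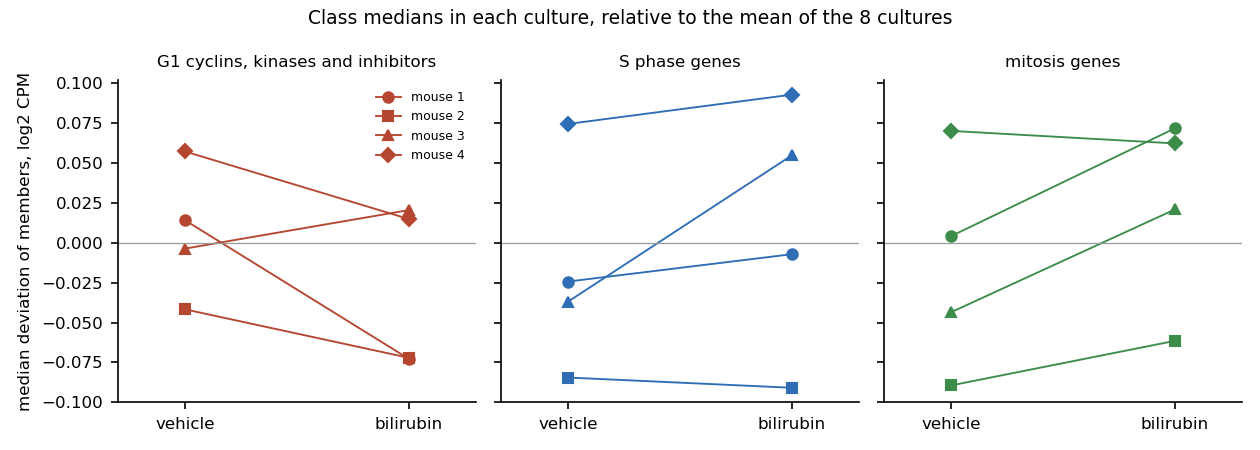
Median deviation of each class from its mean over the 8 cultures (log2 CPM), joined by mouse, for the G1 (n = 11), S phase (n = 18) and mitosis (n = 25) genes. For S phase and mitosis genes both cultures of mouse 2 are the lowest of their group, from -0.06 to -0.09, and the vehicle culture of mouse 4 is the highest, at 0.07.

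The class medians of S phase and mitosis genes also varied between mice, a difference that was not tested. Over the S phase genes the median deviation from the mean of all cultures was -0.08 and -0.09 in the vehicle and bilirubin cultures of mouse 2, and 0.07 and 0.09 in those of mouse 4. Over the mitosis genes it was -0.09 and -0.06 in mouse 2, and 0.07 and 0.06 in mouse 4. These mice held the lowest and the highest vehicle culture of both classes. Their difference is therefore not comparable with the class medians of the change with bilirubin, which were 0.03 and 0.04. Over the 54 genes, deviations from the group means correlated between the cultures of a mouse at 0.10, 0.48, 0.15 and 0.78 for mice 1 to 4. The mean between cultures of different mice was -0.10. Deviations were taken from group means, so that value follows largely from the same-mouse ones. All these correlations are across genes and not independent replicates. Across all tested genes the same-mouse correlations were 0.11, 0.13, 0.11 and -0.01, so that only mice 2 and 4 stood well above them over the 54 genes.

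**Figure D5:**
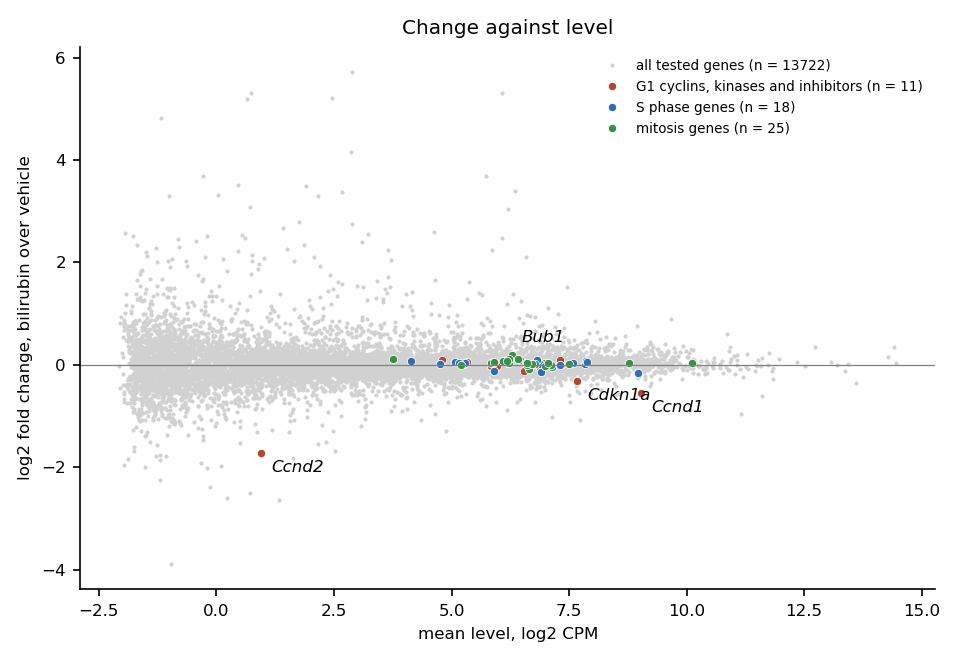
Log2 fold change (bilirubin over vehicle) against mean level (log2 CPM) for the 13722 tested genes in grey and the 54 cell cycle genes in color by class. *Ccnd2* sits at a low level (0.94) with a change of -1.72, *Ccnd1* at a high level (9.03) with -0.54, and most S phase and mitosis genes lie close to the line at 0.

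Other genes of the same machinery also showed small changes. Of 98 further cell cycle genes, 96 could be tested and 0 passed by edgeR's quasi-likelihood test, beside 7.53% of all tested genes. Of these 96 genes, 16 had an unadjusted p under 0.05, beside 2851 of all 13722 tested genes. limma-voom also called 0, and DESeq2 called 1, *Cdkn1c*, which encodes the inhibitor p57 and is named after its values were seen. *Cdkn1c* went from 6.67 to 9.92 CPM, a log2 fold change of 0.58 (edgeR quasi-likelihood test, adjusted p = 0.0616), and it was higher with bilirubin in 4 of 4 mice. The median change was -0.01 over the 23 genes of the RB and E2F families and other G1 regulators, 0.05 over the 37 replication genes (origin recognition, polymerases, clamp loaders and histone chaperones) and 0.05 over the 36 genes of mitosis (condensins, kinesins and kinetochore proteins). Among the 37 replication genes 9 had an unadjusted p under 0.05, beside the same 2851 of 13722. The 95% interval lay within 1.3-fold of no change for 93 of the 96 genes, and for 51 of the 54 named above, all but *Ccnd1*, *Ccnd2* and *Cdkn1a*. Of all 13722 tested genes, 8636 had such an interval, and the bound was chosen after the values were seen. When mouse 1 was left out, 10 of the 54 genes passed (4 rose and 6 fell) among 1910 of all tested genes. The falls were *Ccnd1*, *Ccnd2*, *Cdkn1a*, *Cdkn2c*, *Cdt1* and *Cdc25b*, and the rises *Bub1*, *Ccne2*, *Cdk6* and *Rrm2*. Without mouse 2, mouse 3 or mouse 4, 3 genes passed in each case, and these were *Ccnd1*, *Ccnd2* and *Cdkn1a*.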

How the data were processed

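BMDM of 4 mice were sequenced as poly(A)-selected RNA, with a vehicle and a bilirubin library from each mouse. The authors trimmed reads with Trim Galore 0.6.7 and Cutadapt 3.4, aligned them with STAR 2.7.9a to GRCm39, quantified transcripts with Salmon 1.10.1 and summed them per gene. The authors deposited Salmon's estimated counts (expected counts) per gene without normalization, of which 88.45% were whole numbers, and for 142434 transcripts in each library the TPM, effective length and estimated count. Summed transcript counts equalled the gene table. Strandedness of counting and the removal of duplicates are not given in the sources used here.

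The rounded counts were fitted with edgeR 4.0.16 in R 4.3.3 (TMM scaling, filterByExpr with minimums of 10 per library and 15 over all libraries, treatment and mouse as terms, the quasi-likelihood test, Benjamini-Hochberg adjustment over 13722 genes, threshold 0.05). The F statistic of each gene gave its standard error and 95% interval. A prior count of 2 was used for log2 CPM. The labels give both cultures of a pair the same BMDM number. That number was taken as the mouse, since the authors describe BMDM of 4 mice and a mouse covariate. Over all tested genes same-mouse cultures had a mean deviation correlation of 0.086. The mean for different mice was -0.028. Deviations were taken from group means, so this negative value follows largely from the positive one and is no separate evidence. P-values set the change with bilirubin against how much that change varied among 4 mice, with the spread estimate moderated across genes. Differences in level between mice are taken up by the mouse term. Libraries held 34142781 to 47071714 counts, and counting error weighs most on *Ccnd2*, the gene with the fewest. The 12 alternatives were treatment alone, DESeq2 1.42.0, limma-voom (limma 3.58.1), DESeq2 size factors, library size alone, no filter, a CPM above 1 in 4 libraries, transcript length as an offset, and fits without mouse 1, 2, 3 or 4. The procedure was also run on simulated data, in which every planted change was larger than those of *Cdkn1a* and *Bub1*. It therefore does not show how well changes of that size are found.

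The genes, their classes and the further lists were chosen with earlier results of these data known. Values in every library are given for genes past the threshold, for the 3 genes of each class with the highest TPM, and for *Mki67*, *Pcna*, *Ccnd1*, *Cdkn1a*, *Cdkn1b* and *E2f1*, and all 54 could be named. *Ccnd3* was added to these for the comparison of D-type cyclins after its values were seen. From other lists, at most 4 genes per direction could be named, if past the threshold, of the same direction in 4 mice and at 1 log2 CPM or more. The markers *Kit*, *Flt3*, *Mpo*, *Elane*, *Ly6g* and *Camp* were named outside this rule. Raw reads and the other experiments of the study were not analysed here, and the result of 1 gene and 1 promoter sequence are not reported here.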

Additional observations from a re-analysis of the deposited data

Results flagged for a closer look

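In 2 of 26 groups of 4 cultures (13 genes in 2 groups each), a single culture lay far from the others by Dixon's test, a check that flags about 1 in 20 groups by chance. The vehicle culture of mouse 4 had 242 CPM of *Mcm6*, while the other vehicle cultures had 223 to 224 CPM. The bilirubin culture of mouse 1 had 34.0 CPM of *Cdkn1b*, while the other bilirubin cultures had 26.4 to 27.3 CPM. Neither gene passed the test between groups.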

How the results depend on the processing

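The direction of *Ccnd1*, *Ccnd2*, *Cdkn1a* and *Bub1* was the same under all 12 alternatives. The number of all tested genes past the threshold was 1033, and 686 without the replicate block, 1692 without a filter and 579 with the length offset, and it ranged from 377 to 1910 when a mouse was left out. Among the 54 genes the count was 4, the same with the treatment alone in the model, so that the pairing by mouse changed no call among them, 2 with the length offset, and 3 to 10 with a mouse left out. It was 3 to 6 for the G1 genes with a mouse left out, 2 without a filter and 0 to 2 with a mouse left out for S phase genes, and 0 with the offset and 0 to 2 with a mouse left out for mitosis genes. For the further cell cycle genes it was 1 with DESeq2, 2 without a filter and 0 to 2 with a mouse left out, the 2 genes being *Cdkn1c* and *Uhrf1* both times, named after their values were seen. In each of these ranges the highest count was without mouse 1, and the lowest over all genes was without mouse 3. Scaling by library size alone gave 527 rises and 556 falls over all genes in place of 616 and 417, and left the calls among the 54 genes at 1 rise and 3 falls. The cause of these shifts was not tested. Depth limits *Ccnd2* most, with 15 to 151 counts per library.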

Other observations

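Genes around the cell cycle machinery moved in both directions. Of 18 genes of growth arrest and the p53 response, 2 rose and 3 fell, beside 4.49% and 3.04% of all tested genes, and 13 did not pass. Of the 18 changes 7 were positive and 11 negative, with a median log2 fold change of -0.04. The falls were *Zmat3* (-0.33, edgeR quasi-likelihood test, adjusted p = 0.00447), *Plk3* (-0.37, 0.0156) and *Sesn2* (-0.29, 0.0302), and each was lower in 4 of 4 mice. The rises were *Btg1*, an antiproliferative gene, from 117 to 144 CPM (0.30), and *Klf4*, a transcription factor of monocyte differentiation, from 20.2 to 24.9 CPM (0.30).

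Of 14 genes of the M-CSF receptor and its pathway, 3 rose and 1, not named here, fell, beside the same 4.49% and 3.04% of all tested genes, and 10 did not pass. The receptor gene *Csf1r* was at 1494 CPM in vehicle and 1490.5 CPM in bilirubin cultures, a log2 fold change of -0.02 (95% interval -0.16 to 0.13). The rises were *Csf2rb* (0.64), the shared beta chain of the GM-CSF, IL-3 and IL-5 receptors, whose reads can be split with its near copy *Csf2rb2*, *Fos* (0.45), an immediate early gene, and *Csf2ra* (0.20), the GM-CSF receptor alpha chain. *Csf1r* is named as a macrophage marker.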
